A study of Mus musculus with 4 samples.

Results

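The 5 subunits of inhibitory neurotransmitter receptors, Gabra2, Gabra4, Gabrg3, Gabrr1 and Glra1, were followed across the retinal ganglion cells (RGCs) of mouse retinas. They were chosen by name as 5 of the 300 genes of a custom Xenium panel, an imaging assay that decodes transcripts as puncta inside tissue sections. The retinas came from wild-type C57BL/6 mice kept without manipulation, and were cut en face, parallel to the retinal surface, into cryosections of 20 µm. The deposited table held 131379 cells from 5 retinas, in 41 sections on 8 slides, each cell called an RGC and assigned by the authors to 1 of 45 types. The labels describe 1 group, and all comparisons are made inside retinas: of types, of cells that hold a subunit against cells that do not, of larger against smaller cells, and of positions. Whether each retina is from its own animal is not stated, and the p-values reflect the spread between these 5 retinas, which may be technical. Retinas 1 to 5 held 35099, 41048, 13127, 27734 and 14371 cells, with a median of 326, 297, 285, 295 and 304 panel puncta per cell, and no cell had fewer than 100.

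GABA-A receptors are chloride channels built from 5 subunits around a pore, usually alpha, beta and gamma subunits together. Gabra2 and Gabra4 encode alpha subunits, Gabrg3 encodes a gamma subunit, and Gabrr1 encodes a rho subunit, whose channels close slowly and are known in the retina from bipolar cells. Glra1 encodes an alpha subunit of the glycine receptor, also a chloride channel. RGCs receive both transmitters from amacrine cells, the inhibitory interneurons of the inner retina.

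A level is given below as puncta of the gene per 10000 panel puncta, and an error as the SD over retinas unless stated otherwise. Probes differ in how well they detect their transcripts, so levels were compared between cells and not between genes. Gabra2 stood at 84.3, 87.9, 87.7, 89.2 and 84.1 in retinas 1 to 5, and 74.4% of cells held at least 1 punctum. Gabrg3 stood at 41.3, 40.7, 39.1, 38.8 and 37.7, with a punctum in 42.8% of cells. Both genes kept nearly the same level in all 5 retinas. Gabra4 had 36.6, 40.9, 75.3, 86.0 and 51.1, with a punctum in 62.1% of cells, and was high in retinas 3 and 4. Glra1 had 16.7, 18.4, 28.4, 29.6 and 20.3, with a punctum in 37.7% of cells, and its 2 highest retinas were the same. Gabrr1 had 0.546, 0.853, 1.59, 1.05 and 1.24, from 3886 puncta in all, and 2.44% of cells held one. After each cell was thinned to 100 puncta, the subunits were seen in 48.6% of cells for Gabra2, 38.02% for Gabra4, 25.1% for Gabrg3, 18.7% for Glra1 and 1.12% for Gabrr1.

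The differences between retinas in Gabra4 and Glra1 were also present between sections of the same retina. Over the 30 sections with at least 500 cells, Gabra4 ranged from 14.8 to 130, and the SD of its log2 level ranked 6 of 300 panel genes. Glra1 ranged from 8.77 to 44.7 and Gabrr1 from 0.420 to 5.05. Gabra2 ranged only from 75.0 to 101 and Gabrg3 from 32.4 to 43.8, a 1.35-fold span for each, with SDs that ranked 233 and 281. Each retina lay on 2 slides. On its 2 slides Gabra4 had 74.0 and 15.1 in retina 1, 102 and 38.2 in retina 2, 111 and 70.1 in retina 3, 30.2 and 104 in retina 4, and 40.2 and 60.9 in retina 5. The slide with 30.2 in retina 4 also held the sections of retina 5 with 40.2, and the slide with 70.1 in retina 3 held those of retina 5 with 60.9. Both shared slides thus put different retinas at closer levels than the 2 slides of retina 1.

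Markers of other cells moved with these section levels. Across the 30 sections, which share retinas, slides and panel totals, Gabra4 and Glra1 had a Pearson correlation of 0.96 with each other. Their correlation with the summed rod markers (3 genes) was 0.84 for Gabra4 and 0.86 for Glra1, and with the summed RGC markers -0.71 for Gabra4 and -0.78 for Glra1. Gabrr1 followed the summed bipolar markers at 0.96, and Gabrr2, another rho subunit, at 0.96. The rod markers ranged from 13.5 to 112 over the sections, the bipolar markers (14 genes) from 47.8 to 155 and the RGC markers from 665 to 830. The part of these markers in the section differences was not tested. Values are therefore also given within sections.

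**Figure D1:**
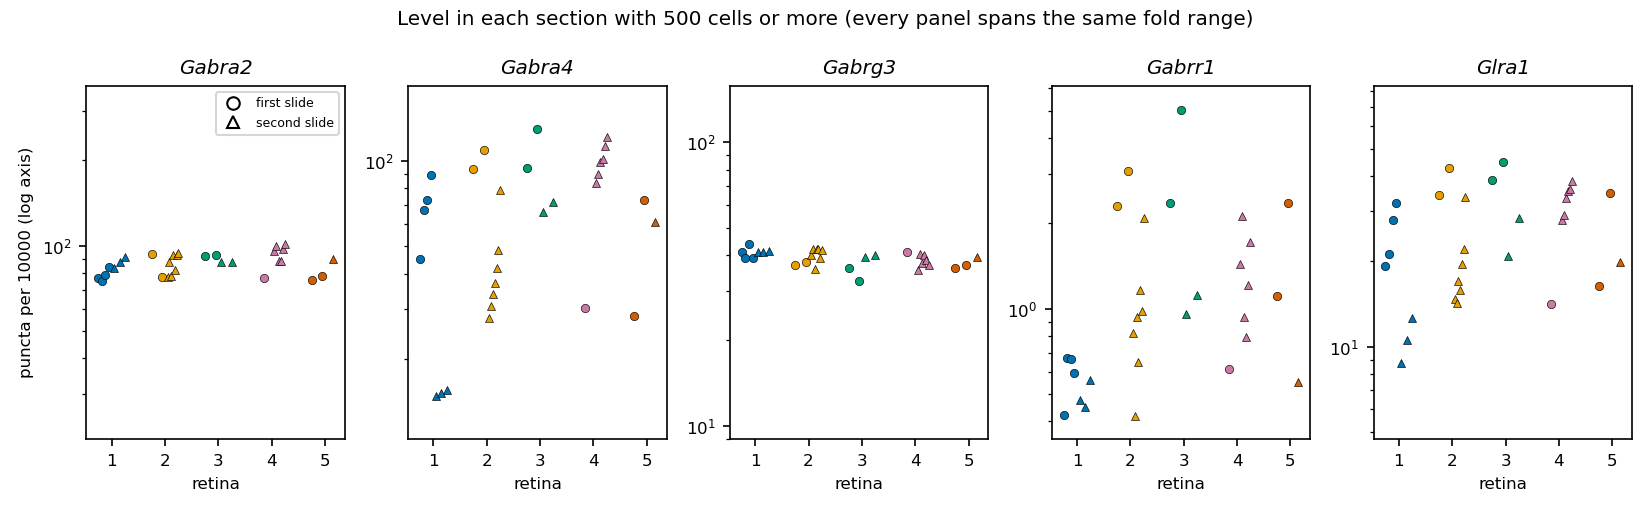
Level of each subunit (puncta per 10000 panel puncta, log axis) in the 30 sections with at least 500 cells, by retina and slide. Gabra4, Glra1 and Gabrr1 spread widely between sections of 1 retina, while Gabra2 stays between 75.0 and 101 and Gabrg3 between 32.4 and 43.8.

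The types below carry the authors' names, and the types may have been assigned from these same genes, so the levels by type are a description without a test. Gabra2 was highest in 10_Novel, with 226 ± 10.5 (SD, n = 5), followed by 14_ooDS_Cck with 199 ± 9.80 and 36_Novel with 193 ± 18.5. 24_Novel had 163 ± 4.01, 29_Novel 155 ± 10.2, 12_ooDS_NT 155 ± 9.82, 16_ooDS_DV 146 ± 8.61, 17_Tbr1_S1 141 ± 6.93, 28_FmidiOFF 136 ± 10.5, 09_Tbr1_Novel 132 ± 4.56 and 26_Novel 122 ± 6.63. All 3 ooDS types, the ON-OFF direction-selective cells, were thus among the 7 types with most Gabra2, and over the 3 together the level was 162 ± 7.92. Then came 18_Novel at 109 ± 4.53, 27_Novel, 25_Novel, 05_J-RGC, 38_FmidiON at 96.4 ± 9.59, 01_W3D1.1, 15_Novel, 37_Novel, 30_Novel, 02_W3D1.2, 39_Novel, 41_AlphaONT, 19_Novel, 20_Novel, 35_Novel, 03_FminiON and 13_Novel at 63.7 ± 2.49. The next ones were 08_Novel at 54.5 ± 4.06, 32_F_Novel, 42_AlphaOFFS, 07_Novel, 44_Novel, 06_W3B, 45_AlphaOFFT, 11_Novel, 04_FminiOFF, 23_W3D2 and 33_M1 at 28.1 ± 2.65. At the low end stood 21_Tbr1_S2 with 25.7 ± 2.30, 40_M1dup with 23.3 ± 4.90, 22_M5 with 22.3 ± 3.03, 34_Novel with 20.8 ± 1.304, 31_M2 with 17.4 ± 3.29 and 43_AlphaONS with 15.95 ± 1.06. The top type held 14.2 times the level of the bottom type, and the median type held 67.5. The 4 M types, which are intrinsically photosensitive cells, had 21.8 ± 2.81 together, and the 4 alpha types, large cells with fast axons, had 37.2.

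The order of the types for Gabra2 hardly changed between retinas, with Spearman correlations of 0.96 to 0.99 between any 2 retinas over the 45 types. Neighbours in the order were often not separable: the paired difference exceeded its SD over retinas for 12 of the 44 neighbouring pairs. The Tbr1 types differed widely among themselves, with 141 ± 6.93 in 17_Tbr1_S1, 132 ± 4.56 in 09_Tbr1_Novel and 25.7 ± 2.30 in 21_Tbr1_S2. The F types, named for the transcription factor Foxp2, ran from 136 ± 10.5 in 28_FmidiOFF to 34.7 ± 1.84 in 04_FminiOFF.

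Gabrg3 was concentrated in fewer types. It was highest in 13_Novel at 174 ± 8.65 and 07_Novel at 159 ± 9.58 (SD, n = 5), then in 12_ooDS_NT at 124 ± 11.2, 14_ooDS_Cck at 101 ± 7.21 and 21_Tbr1_S2 at 86.1 ± 3.19. These 5 types held 47.6% of all Gabrg3 puncta in 15.9% of the cells. Next were 11_Novel at 77.0 ± 1.31, 24_Novel at 74.8 ± 4.27, 16_ooDS_DV at 74.3 ± 5.50, 06_W3B at 62.5 ± 1.96, 23_W3D2 at 62.1 ± 3.03, 30_Novel at 52.4 ± 4.602, 36_Novel at 48.0 ± 5.61 and 10_Novel at 36.3 ± 2.28. Those 13 types were above 2 times the median type, which held 13.4. A step followed, with 40_M1dup at 23.9 ± 5.60, 35_Novel, 33_M1, 31_M2 at 22.1 ± 2.53, 29_Novel, 38_FmidiON at 16.3 ± 3.53, 01_W3D1.1, 22_M5, 03_FminiON and 18_Novel at 13.4 ± 1.79. The other 22 types lay between 12.2 ± 2.58 in 34_Novel and 4.18 ± 0.424 in 43_AlphaONS. Near the bottom were also 39_Novel with 4.83 ± 1.49, 37_Novel with 5.37 ± 1.68 and 09_Tbr1_Novel with 5.53 ± 1.302. The top type exceeded the bottom type 41.5-fold. The SD of the log2 level over types ranked 17 of the 300 genes, and the order of types had Spearman correlations of 0.93 to 0.98 between retinas.

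Gabra2 and Gabrg3 shared the ooDS types and 24_Novel as high types, but their leading types differed. 10_Novel led for Gabra2 and had 36.3 ± 2.28 of Gabrg3. 13_Novel led for Gabrg3 and had 63.7 ± 2.49 of Gabra2, below the median type. 07_Novel, the runner-up for Gabrg3, had 42.0 ± 1.76 of Gabra2, and 21_Tbr1_S2 had high Gabrg3 with little Gabra2. Over the 45 types the Pearson correlation of the 2 log2 levels was 0.09. For Gabrg3, 11 of the 44 neighbours in the order differed by more than their SD.

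Glra1 was highest in 38_FmidiON, at 86.5, 80.3, 88.9, 101 and 78.9 in retinas 1 to 5. That type stood above all others, with a mean of 87.0 ± 8.65 (SD, n = 5). The alpha OFF types followed, 42_AlphaOFFS at 65.8 ± 5.34 and 45_AlphaOFFT at 60.0 ± 5.40. Then came 23_W3D2 with 49.9 ± 5.03, 32_F_Novel with 49.2 ± 5.63, 34_Novel with 42.5 ± 4.62, 44_Novel with 36.8 ± 21.3, 26_Novel with 35.8 ± 7.09 and 28_FmidiOFF with 32.1 ± 3.69. The alpha ON types were lower, 41_AlphaONT at 25.5 ± 5.26 and 43_AlphaONS at 16.9 ± 2.02. 27_Novel, 15_Novel, 33_M1, 29_Novel, 18_Novel, 25_Novel, 01_W3D1.1, 09_Tbr1_Novel, 17_Tbr1_S1 and 03_FminiON ran between 28.0 ± 9.40 and 20.3 ± 7.89. The remaining 24 types were between 19.5 ± 6.17 in 31_M2 and 10.9 ± 3.46 in 24_Novel, with the Gabra2 leader 10_Novel next to last at 11.2 ± 3.77. Most middle types overlapped widely between retinas, and 4 of the 44 neighbours differed by more than their SD. Dividing each level by that of the same sections left 38_FmidiON, 42_AlphaOFFS and 45_AlphaOFFT in front, at 4.00, 2.97 and 2.70 times the section level. Puncta per cell put 42_AlphaOFFS first, and so did the 1181 cells with no punctum of 39 marker genes of other cell types.

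Gabra4 varied less between types than between sections. 44_Novel, with 314 cells, had 150 ± 70.7 (SD, n = 5), and 36_Novel had 94.7 ± 19.0, 29_Novel 91.4 ± 29.2, 27_Novel 85.4 ± 25.0, 18_Novel 84.3 ± 30.4, 16_ooDS_DV 79.5 ± 20.2 and 09_Tbr1_Novel 76.9 ± 22.9. 44_Novel had 2.79 times the level of the median type, and 2.13 times when puncta were counted per cell. The lowest types were the alpha types 42_AlphaOFFS at 30.5 ± 12.2, 43_AlphaONS at 30.1 ± 10.3 and 45_AlphaOFFT at 30.1 ± 10.9. The other 35 types lay between 75.6 ± 27.4 in 02_W3D1.2 and 36.9 ± 14.5 in 19_Novel. Their SDs over retinas follow the retina and slide levels above, and 3 of the 44 neighbours differed by more than their SD. The order of types still had Spearman correlations of 0.85 to 0.93 between retinas. Relative to the same sections, 44_Novel stood at 2.48, 36_Novel at 1.76 and 43_AlphaONS at 0.531.

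Gabrr1 was close to its floor in every type. Its highest levels were 2.68 ± 1.40 in 10_Novel, 2.55 ± 2.08 in 22_M5, 2.03 ± 1.26 in 16_ooDS_DV and 1.68 ± 0.784 in 01_W3D1.1, and its lowest were 0.374 ± 0.220 in 34_Novel and 0.363 ± 0.186 in 43_AlphaONS (SD, n = 5). None of the 44 neighbours in the order differed by more than its SD, and Spearman correlations between retinas were 0.17 to 0.54. Over the 45 types, whose cells share the same sections, the log2 level had a Pearson correlation of 0.74 with the sum of 12 bipolar markers. These 12 leave out bipolar markers that RGCs are known to express. In cells with no punctum of these 12, the level in 10_Novel was 0.754, and the highest type was 33_M1 with 1.33. The order of the types for Gabrr1 was therefore not stable at this depth.

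**Figure D2:**
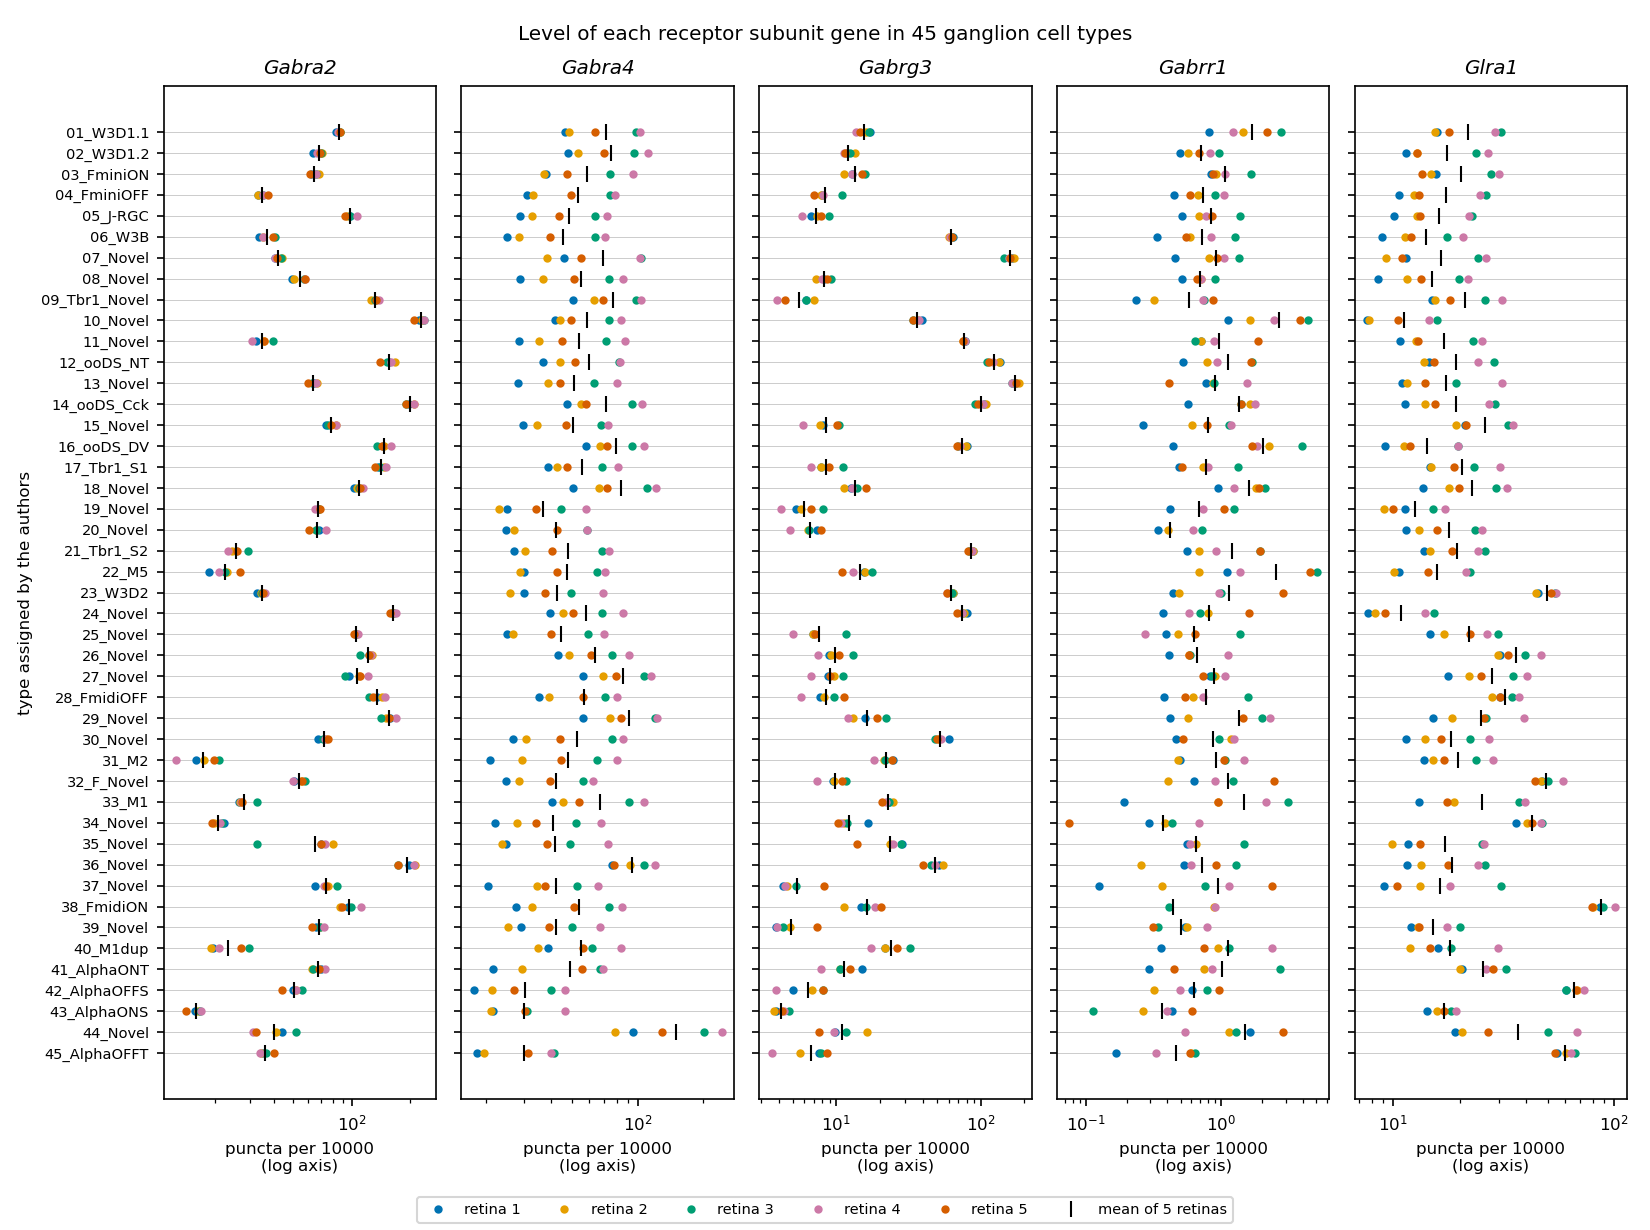
Level of the 5 subunits (puncta per 10000 panel puncta, log axis) in the 45 types, with 1 point per retina and the mean. Gabrg3 spans 41.5-fold from 13_Novel to 43_AlphaONS and Gabra2 14.2-fold from 10_Novel to 43_AlphaONS, while the points of Gabra4 and Gabrr1 spread within each type.

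The subunits had different nearest genes over types. Likeness was measured as Pearson correlation over the 45 types of log2(level + 0.1), with no test, and the types share their sections and panel totals. Gabra2 was most like Gabrb1, a GABA-A beta subunit, at 0.69, Kcnn2 at 0.59 and Tmem163 at 0.56, and least like S100b at -0.65. Gabra4 was also most like Gabrb1, at 0.80, then Car8 at 0.74 and Crym at 0.68, and least like Kcnc1 at -0.55. Gabrg3 came nearest to Pcdh8 at 0.53, Scn7a at 0.47 and Syndig1l at 0.43, and was farthest from Kcnk1 at -0.55. Glra1 came nearest to Meis2 at 0.59, Kcnip2 at 0.55 and Etv1 at 0.53, and was farthest from Cacng3 at -0.56. Gabrr1 was closest to Trpm1 and Gabrr2, both at 0.90, and Lrtm1 at 0.88, and farthest from Kcnab2 at -0.38. Trpm1 is the cation channel of ON bipolar cells.

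Gabrb1, the nearest gene over types to both alpha subunits, is also their neighbour in the genome. In RefSeq's GRCm38.p6 the order on chromosome 5 is Gabrg1, Gabra2, Cox7b2, Gabra4 and Gabrb1. Gabrr1 lies beside Gabrr2 on chromosome 4, Gabrg3 beside Gabra5 on chromosome 7, and Glra1 on chromosome 11. RefSeq promoter windows, 250 bases before to 50 after the start, matched 4 of the 5 subunits. Those of 3 of the 4 receptor genes in the chromosome 5 cluster are shown, the 2 subunits and Gabrb1, the gene most like each of them over types. Gabra2 and Gabra4 themselves had a correlation of 0.43 over types, and Gabrg1 had 0.47 with Gabra2 and 0.0011 with Gabra4. Capitals mark GC boxes (GGGCGG on either strand), and the letters read 5′ to 3′ on the gene's strand. The window of Gabra2 is chr5:71095800-71096099 on the minus strand, that of Gabra4 chr5:71658259-71658558 on the minus strand and that of Gabrb1, its first listed start, chr5:71657671-71657970 on the plus strand.
Gabra2: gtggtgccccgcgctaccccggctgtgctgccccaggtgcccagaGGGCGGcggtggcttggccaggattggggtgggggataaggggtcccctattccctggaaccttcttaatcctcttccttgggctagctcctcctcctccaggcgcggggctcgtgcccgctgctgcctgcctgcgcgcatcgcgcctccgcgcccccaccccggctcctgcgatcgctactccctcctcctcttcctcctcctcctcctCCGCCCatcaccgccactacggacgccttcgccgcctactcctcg
Gabra4: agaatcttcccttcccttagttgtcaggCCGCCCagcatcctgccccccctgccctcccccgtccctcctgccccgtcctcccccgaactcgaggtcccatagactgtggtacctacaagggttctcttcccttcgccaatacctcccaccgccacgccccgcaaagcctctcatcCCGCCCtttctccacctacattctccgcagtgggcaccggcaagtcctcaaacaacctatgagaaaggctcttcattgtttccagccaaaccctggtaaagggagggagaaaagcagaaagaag
Gabrb1: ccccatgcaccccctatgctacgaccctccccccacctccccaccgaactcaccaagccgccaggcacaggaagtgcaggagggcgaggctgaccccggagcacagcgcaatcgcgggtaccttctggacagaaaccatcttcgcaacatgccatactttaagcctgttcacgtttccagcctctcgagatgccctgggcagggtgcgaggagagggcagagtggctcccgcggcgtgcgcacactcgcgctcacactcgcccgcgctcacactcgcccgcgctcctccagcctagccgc
GC made up 70.0% of the Gabra2 window, 58.7% of Gabra4's and 66.0% of Gabrb1's. Gabra2 and Gabra4 had 2 GC boxes each and Gabrb1 had 0 in these letters, and 35.7% of 32851 RefSeq promoters of the same length held at least 1. None of the 3 windows held TATAAA, found in 13.6% of promoters, or CAGCTG, found in 16.3%, on either strand.

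Among 15 other panel genes for inhibitory receptors, GABA synthesis and transport, 11 were lowest in the same type as Gabra2 and Gabrg3, 43_AlphaONS, as were 99 of all 300 panel genes, or 33%. Gabrg1, another gamma subunit, was highest in 14_ooDS_Cck at 44.7 ± 2.02 (SD, n = 5), a high type for Gabra2 and Gabrg3 as well. Gabrb1 was highest in 36_Novel at 49.0 ± 3.92, which was also among the top 3 types for Gabra2 and Gabra4. Glrb, the beta subunit of glycine receptors, was highest in 34_Novel at 183 ± 10.8, and Glra2, another alpha subunit, in 15_Novel at 25.8 ± 2.43. Neither type led for Glra1.

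Detection of pairs of subunits in the same cell was compared after thinning every cell to 100 puncta, as a log2 odds ratio per retina. The exact permutation test, two-sided and made by turning signs over the 5 retinas, cannot give a p under 0.062, so no pair could pass 0.05. The smallest permutation p after adjustment over the 10 pairs was 0.0893. Gabrr1 with Glra1 was at 0.65 ± 0.18 (SD, n = 5), above 0 in 5 of 5 retinas, and at 0.50 ± 0.28 within types and sections. Gabra4 with Glra1 was at 0.52 ± 0.22, and at 0.36 ± 0.12 within types and sections. Cells thus held Gabra4 and Glra1 together more often than separate detection gives, in every retina and also when compared with cells of the same type and section. Gabra2 with Gabrg3 was at 0.25 ± 0.05 and 0.18 ± 0.05 within types and sections, above 0 in 5 of 5 retinas both ways. Gabra2 with Gabra4 was at 0.25 ± 0.08, but at 0.04 ± 0.05 within types and sections.

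Glra1 paired with Gabrg3 or Gabra2, and Gabra2 paired with Gabrr1, ran the opposite way. Gabrg3 with Glra1 was at -0.41 ± 0.10, below 0 in 5 of 5 retinas, and -0.18 ± 0.07 within types and sections (SD, n = 5). Gabra2 with Glra1 was at -0.21 ± 0.07 and -0.10 ± 0.07 within types and sections, but in cells that were not thinned it was at 0.15 ± 0.10, above 0 in 5 of 5 retinas. Gabra2 with Gabrr1 was at -0.59 ± 0.37 and -0.71 ± 0.34. The 7 pairs above had the same sign in all 5 retinas, at the smallest exact permutation p of 0.062. Gabra4 with Gabrr1 was at 0.31 ± 0.25, Gabra4 with Gabrg3 at 0.03 ± 0.08 and Gabrg3 with Gabrr1 at -0.16 ± 0.23, with signs that differed between retinas. The share of thinned cells holding both genes ranged from 0.231% for Gabrg3 with Gabrr1 to 18.4% for Gabra2 with Gabra4.

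**Figure D3:**
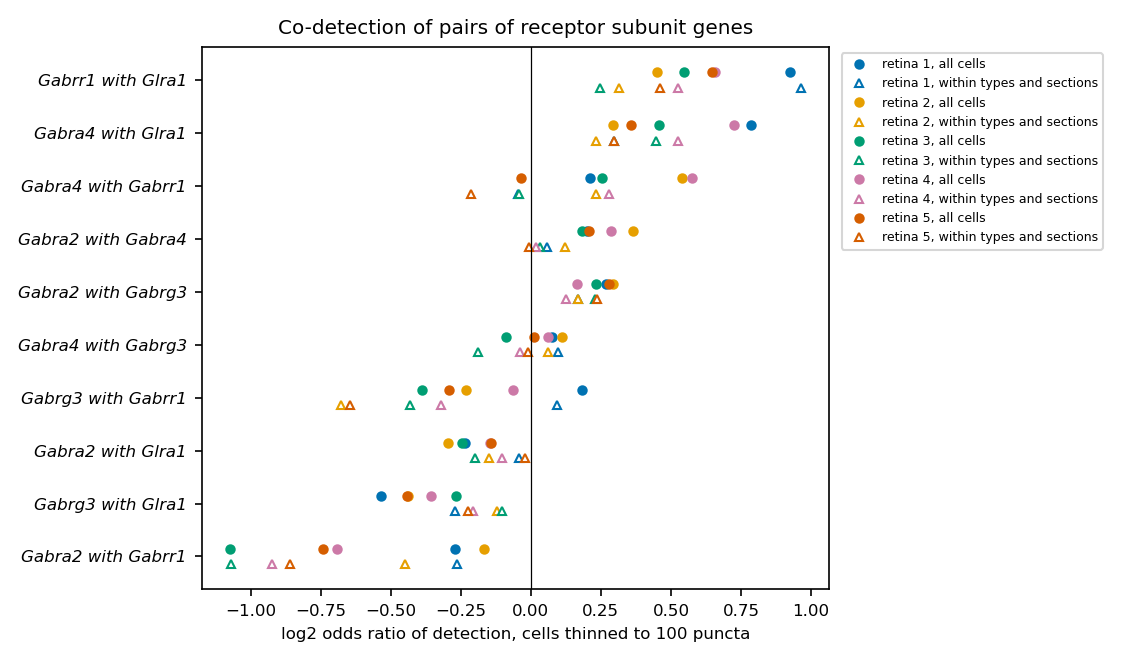
Log2 odds ratio of detection for the 10 pairs of subunits after thinning each cell to 100 puncta, over all cells (filled circles) and within types and sections (open triangles), with 1 point per retina. Gabra4 with Glra1 stays above 0 and Gabrg3 with Glra1 below 0 in every retina in both, while Gabra2 with Gabra4 moves close to 0 within types and sections.

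Cells with at least 1 punctum of a subunit were set against cells without one, summed per retina, in edgeR's quasi-likelihood test with the retina as a block, adjusted over the panel and with a threshold of 0.05. Cells with a punctum were also deeper, with 338 panel puncta against 261 in cells without for Gabra2, 344 against 271 for Gabra4, 352 against 295 for Gabrg3, 356 against 296 for Glra1 and 332 against 320 for Gabrr1. Levels below are relative to the panel total, while the edgeR log2 changes are scaled by TMM. A second value compares cells of the same type and section, by limma on 1 pooled log2 ratio per retina. That ratio is scaled by the panel total, so the 2 log2 values differ in scaling as well as in the cells compared. Panel-total scaling in place of TMM moved the edgeR changes by a median of -0.13 with Gabra2, 0.03 with Gabra4 and -0.06 with Gabrg3. It moved them by 0.05 with Gabrr1 and -0.04 with Glra1.

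Of the other 4 subunits, 4 were called in cells with Gabra2, where 82.6% of the 299 other genes were called by edgeR, and 3 within types and sections, where 70.6% were called by limma. Gabrg3 was higher, at 40.5 ± 1.66 in cells with Gabra2 and 37.3 ± 1.36 in cells without (SD, n = 5; log2 0.25 ± 0.02 SE). Within types and sections it was 0.12 ± 0.02 (limma adjusted p = 0.00389). Gabrr1 was lower, at 0.819 ± 0.220 in cells with and 1.98 ± 1.08 in cells without, by -0.99 log2 and by -1.14 within types and sections. Bipolar markers stood at 60.1 ± 6.13 in cells with Gabra2 and 94.5 ± 27.3 in cells without, with 13 of 14 called lower, and all 3 rod and 5 Müller glia markers were called lower too. Amacrine markers stood at 437 ± 7.60 and 405 ± 9.90, with 7 of 14 called higher and 2 lower. Horizontal cell markers stood at 109 ± 5.17 and 93.8 ± 3.38, with 3 of 4 called higher and 1 lower. Within types and sections 2 amacrine markers were called higher and 3 lower, and 1 horizontal cell marker each way. Of the RGC markers 5 of 6 were called higher over all cells. The part of these markers in the differences was not tested. Glra1 was lower by -0.12 and by -0.16. Gabra4 was 0.22 higher over all cells, but -0.06 within types and sections, where it was not called. The largest rises were in Mmp9, a matrix metalloproteinase, with 62.7 ± 2.53 in cells with Gabra2 and 19.6 ± 1.11 in cells without, then Tfap2d and Gabrb1, by 1.81, 1.41 and 1.18 log2. Within types and sections these were 0.58, 0.17 and 0.35. The largest falls were in Opn4, the photopigment melanopsin, Tmem119, a microglial gene, and Cdh5, an endothelial gene, by -2.22, -1.76 and -1.74. Scaling by the panel total in place of TMM moved the median of all genes in this comparison by -0.13.

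In cells with Gabrg3, 4 of 4 other subunits were called, beside 78.6% of the panel, and 3 within types and sections, beside 70.6%. Gabra2 was higher, at 100 ± 3.01 in cells with Gabrg3 and 75.0 ± 2.08 in cells without (SD, n = 5), by 0.48 log2 and by 0.15 within types and sections. Glra1 was lower, at 19.2 ± 5.83 in cells with and 25.9 ± 6.06 in cells without, by -0.40 and by -0.18. Gabrr1 was lower by -0.39 and by -0.75. Gabra4 was 0.10 higher over all cells (edgeR adjusted p = 0.00394), but lower with the same mix of types, at -0.08 (limma adjusted p = 0.0207), and at -0.04 within types and sections, where it was not called. Bipolar markers stood at 61.02 ± 6.11 in cells with Gabrg3 and 72.5 ± 14.6 in cells without, with 11 of 14 called lower, and all 3 rod and both microglial markers were called lower as well. Horizontal cell markers stood at 123 ± 6.99 and 89.4 ± 4.66, with 2 of 4 called higher and 2 lower. Within types and sections 1 of them was called higher and 2 lower. Their list includes Calb1, which RGCs are also known to express. The part of all these markers was not tested. Tbx20, a T-box transcription factor, rose most, with 19.9 ± 1.40 in cells with Gabrg3 and 4.88 ± 0.301 in cells without, by 2.08 log2 and by 0.90 within types and sections. Zic1 rose by 1.78 and Mmp9 by 1.59, but Zic1 was not called within types and sections. Tpbg, Spp1 and Cdh8 fell by 1.31, 1.23 and 1.08 on the log2 scale.

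In cells with Glra1, 4 of 4 other subunits were called, beside 66.2% of the panel, and 2 within types and sections, beside 49.5%. Gabra4 was higher, at 67.8 ± 24.7 in cells with Glra1 and 49.998 ± 17.1 in cells without (SD, n = 5), by 0.48 log2 and by 0.29 within types and sections. Gabrr1 was higher by 0.42 and by 0.35. Rod markers stood at 46.4 ± 13.6 in cells with Glra1 and 35.7 ± 12.5 in cells without, with 3 of 3 called higher, and 11 of 14 bipolar markers were called higher and 3 of 4 horizontal cell markers lower. Their part was not tested. Gabrg3 was lower by -0.29 and Gabra2 by -0.08, and neither was called within types and sections. The Gabra2 call was also lost without retina 5 (edgeR adjusted p = 0.0572). The largest rises were Tpbg, Kcnip2, a subunit partner of potassium channels, and Etv1, by 1.40, 1.304 and 1.25. The largest falls were Tbx20, Zic1 and Mmp9, by -0.73, -0.55 and -0.44. Tpbg and Tbx20 thus moved in opposite directions with Glra1 and with Gabrg3.

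In cells with Gabra4, 4 of 4 other subunits were called, beside 49.8% of the panel, and 2 within types and sections, beside 26.4%. Those 2 were Glra1, higher by 0.36 over all cells and 0.25 within types and sections, and Gabra2, higher by 0.38 and 0.08. Gas7, Mmp9 and Gngt1, a rod transducin subunit, rose most, by 0.67, 0.63 and 0.61. Gngt1 stood at 28.4 ± 8.37 in cells with Gabra4 and 18.7 ± 6.67 in cells without (SD, n = 5), and at 0.39 log2 within types and sections, where Mmp9 was not called. Spp1, Zic1 and Penk fell most, by 0.58, 0.54 and 0.49 on the log2 scale. Gabrg3 was higher by 0.11 and Gabrr1 by 0.21 over all cells, and the Gabrr1 call was lost without retina 1, 2 or 4. Rod markers stood at 44.6 ± 13.3 in cells with Gabra4 and 30.6 ± 10.7 in cells without, with 3 of 3 called higher, also within types and sections. Of the bipolar markers 7 of 14 were called higher, and 1 within types and sections. Of the horizontal cell markers 3 of 4 were called higher, and 0 within types and sections. The part of these markers was not tested.

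In cells with Gabrr1, 3 of 4 other subunits were called, beside 66.6% of the panel, and 2 within types and sections, beside 53.2%. Glra1 was higher, at 28.6 ± 7.05 in cells with Gabrr1 and 22.5 ± 5.87 in cells without (SD, n = 5), by 0.30 log2 and by 0.29 within types and sections. Gabra2 was lower by -0.15 and by -0.22. Gabra4 was higher by 0.19 over all cells, a call that was lost without retina 2, 3 or 4. The largest rises were in genes of the bipolar and horizontal cell lists, with Gsg1 at 13.7 ± 7.88 in cells with and 0.707 ± 0.191 in cells without, Vsx1 at 14.1 ± 7.91 and 1.006 ± 0.213, and Lhx1 at 2.70 ± 1.34 and 0.229 ± 0.0611. All 14 bipolar markers were called higher, and their sum was 260 ± 113 in cells with Gabrr1 and 60.8 ± 6.75 in cells without. Of 6 RGC markers 5 were called lower, with sums of 703 ± 61.5 and 826 ± 23.1. All 3 rod, 2 cone and 5 Müller glia markers were called higher too, also within types and sections. Rod markers stood at 85.9 ± 26.4 and 39.0 ± 13.2, and Müller glia markers at 74.0 ± 11.4 and 49.98 ± 6.66. The part of RNA from bipolar and these other cells in the Gabrr1 puncta was not tested.

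Before the axes are compared, their direction has to be considered. The authors scaled each retina to a circle with axes X and Y, and the labels name no anatomical direction for either. Along Y, the log2 changes of the 300 genes correlated at 0.52 to 0.81 between retinas 1, 2 and 4, but at -0.41 to -0.01 between any of these and retinas 3 or 5. Along X the correlations were 0.45 to 0.62 among retinas 1, 2 and 4 and -0.07 to 0.30 for the other pairs. The X changes of retina 5 correlated with the Y changes of retinas 1, 2 and 4 at 0.64 to 0.76. Those of retina 3 correlated with the same Y changes at -0.29 to -0.18. Opn1sw, the short-wavelength cone opsin, which in mice is concentrated in ventral cones, had lower levels at Y over 0 than at Y under 0 in retinas 1, 2 and 4, with 0.335 against 0.927, 0.626 against 0.933 and 0.901 against 1.27. In retinas 3 and 5 it ran the other way, with 1.61 against 1.35 and 2.12 against 0.782. Tbx20 was also lower at Y over 0 in retinas 1, 2 and 4 and higher in retinas 3 and 5. Opn1mw, another cone opsin, did not split in this way. It was lower at Y over 0 in retina 1, with 1.91 against 2.78, but higher in retinas 2 to 5. Its levels were 2.73 against 1.90 in retina 2 and 3.08 against 2.54 in retina 4. Averages along X and Y over the 5 retinas therefore combine retinas whose gene changes did not run alike. On the radial axis the correlations between retinas ran from -0.24 to 0.84.

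Along the radial axis, split at a scaled radius of 0.5 into 84549 peripheral and 46830 central cells, Glra1 was the 1 subunit called by edgeR, where 6.67% of the panel was called. Its level in the periphery was 17.1, 19.2, 29.7, 31.5 and 22.5 in retinas 1 to 5, against 15.4, 16.9, 27.3, 25.6 and 18.4 in the centre. It was higher in the periphery in each of the 5 retinas, although the ranges over retinas overlapped widely. The mean was 24.0 ± 6.34 in the periphery and 20.7 ± 5.40 in the centre (SD, n = 5), with a log2 change of 0.19 ± 0.04 (SE, edgeR adjusted p = 0.0333). The call did not hold with the slide as the block, at 0.11 (edgeR adjusted p = 0.370; 9% of the panel called), or the section as the block, at 0.06 (adjusted p = 0.313; 17.3% called). Within sections it was 0.09 (limma adjusted p = 0.404; 2.33% called) and within types and sections 0.05 (limma adjusted p = 0.574), where 0% was called and 57 genes had an unadjusted p under 0.05. Without retina 2, 4 or 5 it was lost as well, at edgeR adjusted p = 0.109, 0.158 and 0.0604. The rod markers stood at 44.5 ± 16.1 in the periphery and 34.7 ± 12.9 in the centre, higher in 4 of 5 retinas, and their part in the Glra1 difference was not tested.

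The other 4 subunits were not called on the radial axis. Gabra4 was 60.9 ± 24.2 in the periphery and 53.4 ± 18.4 in the centre (SD, n = 5; log2 0.16, edgeR adjusted p = 0.0932), higher in 5 of 5 retinas, and -0.02 with the section as the block. Gabrg3 was 38.5 ± 2.46 and 41.4 ± 2.78 (log2 -0.12, edgeR adjusted p = 0.160), and Gabrr1 1.25 ± 0.559 and 0.850 ± 0.356 (log2 0.47, edgeR adjusted p = 0.206). Gabra2 was 86.5 ± 4.00 and 86.4 ± 3.44, with a log2 change of -0.01 ± 0.04 SE that was the smallest of the 5. None of the 15 other inhibitory genes was called either by edgeR with the retina as the block. With the slide as the block, where 9% of the panel was called, Gabrg1 was higher, at 0.20 (edgeR adjusted p = 0.0261). Gad1 was lower there, at -0.26 (edgeR adjusted p = 0.0237). Within sections Gabrg1 was at 0.23 (limma adjusted p = 0.0489; 2.33% called), and within types and sections at 0.24 (limma adjusted p = 0.0614). With the section as the block, where 17.3% of the panel was called, Gabrg1 was called higher, and Gad1 and Slc32a1, which make and load GABA, lower. The direction of Slc32a1 depended on the block. It was at -0.21 log2 with the section as the block, but at 0.06 with the retina, and higher in the periphery in 4 of 5 retinas.

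Along X, no subunit was called by edgeR, where 10% of the panel was called. Gabrg3 came closest. It had 39.9, 39.3, 38.6, 37.6 and 35.1 at X over 0 in retinas 1 to 5, against 43.2, 42.6, 39.4, 40.2 and 40.3 at X under 0. The level was lower at X over 0 in each retina, and all but 1 of the values at X over 0 lay below every value at X under 0. The means were 38.1 ± 1.88 and 41.1 ± 1.65 (SD, n = 5), with a log2 change of -0.11 ± 0.03 (SE, edgeR adjusted p = 0.0610). With the slide as the block it was -0.15 (edgeR adjusted p = 0.00662), and Glra1 was also called, at 0.15 (adjusted p = 0.0408), where 10.3% of the panel was called. With the section as the block, where 19.3% was called and sections of 1 retina are not independent, Gabrg3 was at -0.16 and Gabra2 at -0.14. Within sections Gabrg3 was at -0.15 (limma adjusted p = 0.0782; 1% called), and within types and sections at -0.09 (limma adjusted p = 0.301; 0% called, 31 genes with an unadjusted p under 0.05).

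Along Y, 0 of 300 genes were called by edgeR, or 0%, while 31 had an unadjusted p under 0.05 and DESeq2 called 6. Gabra2 had 89.5, 95.5, 89.7, 98.3 and 79.9 at Y over 0, against 78.5, 82.4, 85.1, 82.6 and 90.8 at Y under 0. It was higher at Y over 0 in retinas 1 to 4 and lower in retina 5, with a log2 change of 0.10 ± 0.06 (SE, edgeR adjusted p = 0.551). The other 4 subunits had log2 changes of -0.13 for Gabra4, -0.07 for Gabrg3, 0.04 for Gabrr1 and 0.02 for Glra1. With the slide as the block 0% was called, with 52 genes at an unadjusted p under 0.05. With the section as the block 36.7% of the panel was called, among them Gabra2 at 0.16, Glra1 at 0.17 and Gabrg3 at -0.12. Limma called 0% within sections and 0% within types and sections.

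**Figure D4:**
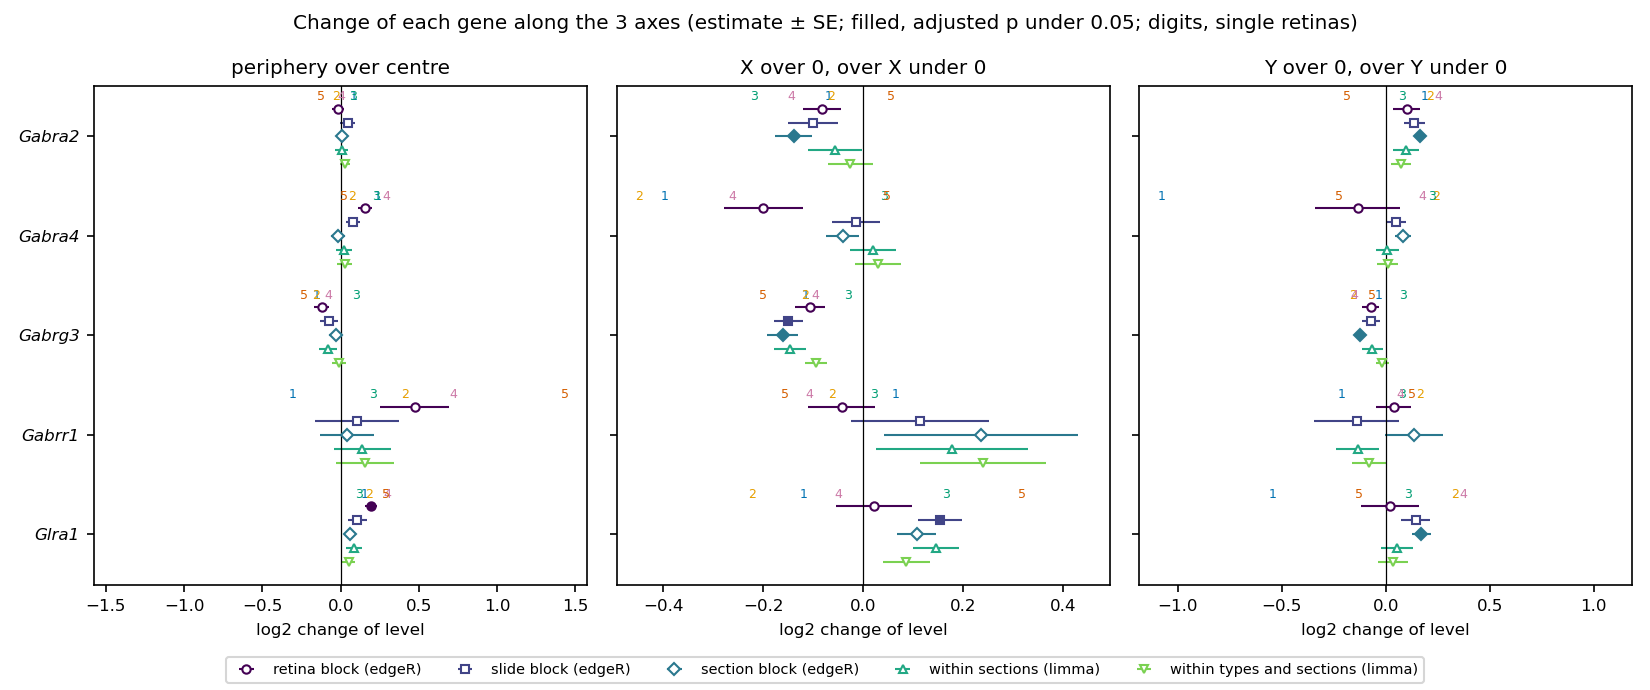
Log2 change of the 5 subunits between periphery and centre, X over 0 and X under 0, and Y over 0 and Y under 0: markers with bars give the estimate ± SE of each fit (filled where called), and digits give single retinas. The digits of Glra1 and Gabra4 lie above 0 on the radial axis and those of Gabrg3 below 0 along X in all 5 retinas, while along Y the retinas fall on both sides for most subunits.

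Within types, the same fits were made for each type with at least 50 cells on both sides in at least 3 retinas, adjusted over all pairs of type and gene. On the radial axis 4 pairs with a subunit were called, beside 2.23% of 10755 pairs. Gabra4 was higher in the periphery in 11_Novel, with 57.5 ± 26.8 against 46.3 ± 22.3 in the centre (SD, n = 5; log2 0.32, edgeR adjusted p = 0.00353), and in 27_Novel, with 93.8 ± 30.3 against 72.9 ± 18.3 (log2 0.37, edgeR adjusted p = 0.0280). Glra1 was higher in 18_Novel, with 25.0 ± 8.66 against 18.9 ± 7.55 (log2 0.41, edgeR adjusted p = 0.0431), and in 27_Novel, with 32.1 ± 10.8 against 19.7 ± 11.6 (log2 0.84, edgeR adjusted p = 0.0281). The 27_Novel difference of Glra1 was present in 4 of 5 retinas. Fitted changes of Gabra4 were above 0 in 39 of 40 types, with a median of 0.18, and those of Glra1 in 35 of 40, with a median of 0.22, beside a median of 0.00 over all pairs. The call in 11_Novel was lost without retina 4, that of Glra1 in 27_Novel without retina 2 or 4, that of Gabra4 there without retina 4 or 5, and that in 18_Novel without any 1 retina. DESeq2 did not call Glra1 in 18_Novel (adjusted p = 0.138) or Gabra4 in 27_Novel (adjusted p = 0.0994). With the slide as the block, none of the 4 was called and the medians were 0.04 for Gabra4 and 0.10 for Glra1.

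Along X, Gabra4 was called lower at X over 0 in 3 types, beside 0.288% of 11826 pairs. It had 70.4 ± 26.5 against 81.3 ± 28.3 at X under 0 in 02_W3D1.2 (log2 -0.25, edgeR adjusted p = 0.0397), and 42.6 ± 19.9 against 49.1 ± 21.9 in 06_W3B (log2 -0.27, edgeR adjusted p = 0.0498). In 37_Novel it had 30.5 ± 16.6 against 53.3 ± 31.9 over the 3 retinas with enough cells (log2 -0.77, edgeR adjusted p = 0.00195), a call that was lost with DESeq2 (adjusted p = 0.0591) and with at least 20 cells per side (log2 -0.57, edgeR adjusted p = 0.0925). The calls in 02_W3D1.2 and 06_W3B were lost without retina 1, 2 or 4, and both with scaling by the panel total (edgeR adjusted p = 0.0567). That in 06_W3B was also lost with DESeq2 (adjusted p = 0.160) and with at least 20 cells per side (edgeR adjusted p = 0.0602). With the slide as the block 02_W3D1.2 was at 0.01 and 06_W3B at -0.01 (edgeR adjusted p = 0.998 for both), and 37_Novel could not be fitted. Along Y, 3 pairs were called, beside 0.452% of 11503 pairs. Gabra2 in 28_FmidiOFF had 120 ± 6.13 at Y over 0 against 145 ± 18.3 at Y under 0 (SD, n = 5; log2 -0.36, edgeR adjusted p = 0.0376), and the call was lost without retina 1, 2 or 4. It was also lost with the slide as the block (log2 -0.27, edgeR adjusted p = 0.350), DESeq2 (adjusted p = 0.191), scaling by the panel total (edgeR adjusted p = 0.171) or at least 20 cells per side (edgeR adjusted p = 0.144). The other 2 pairs were both in 38_FmidiON.

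In 38_FmidiON, the type that led for Glra1, Gabrg3 and Gabra2 differed along Y in the 3 retinas with at least 50 cells on both sides, retinas 1, 2 and 4. Gabrg3 had 21.0, 18.3 and 25.8 at Y over 0, against 4.53, 6.28 and 10.8 at Y under 0, and the 2 sides did not overlap. The ratio was 4.65, 2.91 and 2.38 in these retinas, and the log2 change 1.65 ± 0.22 (SE, n = 3, edgeR adjusted p = 3.47e-09), from 402 cells at Y over 0 and 384 at Y under 0. Gabra2 had 110, 98.9 and 133 at Y over 0, against 73.9, 78.6 and 87.4 at Y under 0 (log2 0.52 ± 0.09 SE, edgeR adjusted p = 6.13e-06). DESeq2 called Gabrg3 (adjusted p = 0.0220) and not Gabra2 (adjusted p = 0.197). In sections with at least 10 cells on both sides, Gabrg3 was higher at Y over 0 in 3 of 3, 3 of 3 and 4 of 5. Without any 1 of these retinas the type had too few retinas to be tested.

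In retinas 3 and 5, which were too small in this type for the test, Gabrg3 ran the other way along Y. It had 12.4 at Y over 0 against 21.1 at Y under 0 in retina 3, from 41 and 33 cells, and 17.3 against 25.7 in retina 5, from 86 and 49 cells. Gabra2 had 106 at Y over 0 against 89.3 at Y under 0 in retina 3, the same direction as in retinas 1, 2 and 4, and 82.4 against 99.5 in retina 5. Along X, retina 5 had 29.3 at X over 0 against 7.82 at X under 0, a ratio of 3.74, while the other 4 retinas had ratios of 0.747 to 0.995. These are the retinas and axes whose changes over all 300 genes did not run alike. With at least 20 cells per side in place of 50, which takes in all 5 retinas, the log2 change along Y was 0.83 for Gabrg3 (edgeR adjusted p = 0.394) and 0.31 for Gabra2 (edgeR adjusted p = 0.370).

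In finer steps along Y in retinas 1, 2 and 4, Gabrg3 in 38_FmidiON stood at 5.86, 8.69, 6.95, 10.3, 26.9 and 34.8 in bins with edges at -1.2, -0.6, -0.3, 0, 0.3, 0.6 and 1.2. The level thus stayed near 10 or under up to 0.3 and was over 2 times higher beyond it. Gabra2 stood at 68.0, 88.6, 86.0, 102, 120 and 125.1 in the same bins, and Glra1 at 103, 95.1, 94.1, 85.9, 85.2 and 80.7. The SD of Glra1 over these retinas was 21.9 in the first bin and 27.2 in the last. Its ratio between Y over 0 and Y under 0 was 0.685 in retina 1, 1.05 in retina 2 and 0.928 in retina 4. Each bin held 61 to 179 cells.

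**Figure D5:**
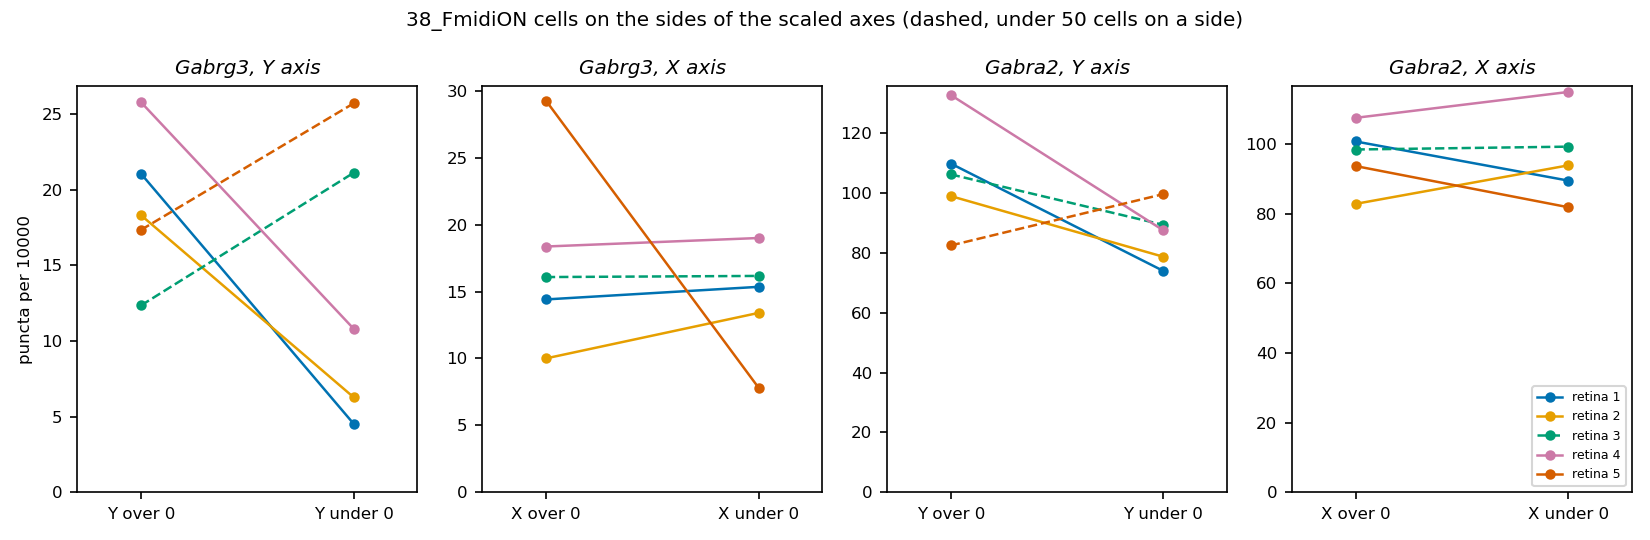
Level of Gabrg3 and Gabra2 (puncta per 10000 panel puncta) in 38_FmidiON on both sides of Y and of X, with 1 line per retina, dashed where a side had under 50 cells. Gabrg3 is 2.38 to 4.65 times higher at Y over 0 in retinas 1, 2 and 4, is lower there in retinas 3 and 5, and in retina 5 is 3.74 times higher at X over 0.

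Cells above the median volume of their own type and retina were set against the cells at or below it, which keeps the mix of types equal. All 5 subunits were called by edgeR, beside 63.7% of the panel. Gabrr1 was lower in larger cells, with 0.465, 0.654, 1.195, 0.895 and 1.095 in retinas 1 to 5, against 0.678, 1.197, 2.25, 1.31 and 1.48 in smaller cells (log2 -0.60 ± 0.09 SE, edgeR adjusted p = 0.000508). Glra1 was 21.2 ± 5.93 in larger and 25.0 ± 6.15 in smaller cells (SD, n = 5; log2 -0.19, edgeR adjusted p = 0.0106), and Gabra4 54.7 ± 21.1 and 63.6 ± 23.2 (log2 -0.17, edgeR adjusted p = 0.0338). Both were lower in larger cells in 5 of 5 retinas, and the Gabra4 call was lost without retina 3 (edgeR adjusted p = 0.0789). Gabrg3 was higher, with 40.1 ± 1.55 and 38.5 ± 1.42 (log2 0.12, edgeR adjusted p = 0.00125), and Gabra2 with 87.1 ± 2.59 and 85.8 ± 2.00 (log2 0.08, edgeR adjusted p = 0.00473), higher in 4 of 5 retinas. Scaling by the panel total in place of TMM put Gabrg3 at 0.06 (edgeR adjusted p = 0.0101) and Gabra2 at 0.02, where it was not called (edgeR adjusted p = 0.159).

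Within types and sections together, cells were split anew, at the median volume of their own type and section. There limma called 56% of the panel and 2 of the 5 subunits. Gabrr1 was lower in larger cells by -0.45 (limma adjusted p = 0.00947) and Glra1 by -0.12 (limma adjusted p = 0.00478). Gabra4 was at -0.06 (limma adjusted p = 0.0726), and Gabrg3 and Gabra2 at 0.00 and -0.00. These limma values are scaled by the panel total. On the same split edgeR, with TMM and the section as the block, called Gabrg3 at 0.10 (edgeR adjusted p = 3.5e-06). It also called Gabra2, at 0.08 (edgeR adjusted p = 7.49e-06), and not Gabra4, at -0.01 (edgeR adjusted p = 0.750). Sections of 1 retina are not independent in that fit. Bipolar markers were at 61.9 ± 9.78 in larger and 75.0 ± 12.2 in smaller cells (SD, n = 5), with 11 of 14 called lower, and rod markers at 35.6 ± 13.2 and 48.2 ± 14.99, with 2 of 3 called lower. Their part in the volume differences was not tested. Of the 15 other inhibitory genes 3 were called higher and 7 lower in larger cells by edgeR, beside 63.7% of the panel, and 1 higher and 10 lower by limma within types and sections, beside 56%.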

How the data were processed

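Transcript puncta per gene and cell were analysed as deposited by the authors: raw counts with a type call, a scaled position and a volume per cell, in 1 table for 5 retinas. The 4 labelled samples are pairs of slides and could not be tied to the slides of the table, so the retina was the replicate. Genome build and software of the authors' processing are not given in the sources used here. No cell had the same counts as another.

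Counts were summed per retina and side, or per section, and fitted with edgeR 4.0.16 (quasi-likelihood, TMM, filterByExpr, retina as a block) in R 4.3.3. P-values were adjusted by Benjamini-Hochberg over the panel, or within types over every type-gene pair, at a threshold of 0.05. The pairing of sides comes from the retina they share. Values within sections, or types and sections, are Mantel-Haenszel log2 ratios per retina with 0.5 added to both sums, tested with limma 3.58.1. Values with the same mix of types are log2 ratios of levels per retina with a pseudocount of 0.1, also tested with limma. DESeq2 1.42.0, other scalings, filters, splits and blocks, and each retina left out were alternatives. The rest used Python 3.11.15 with pandas 2.3.3, numpy 2.4.6, scipy 1.17.1 and, for plots, matplotlib 3.10.9. Fits were tested on simulated data.

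The subunits, lists and tests were chosen with earlier results of these data known. Genes named beside the subunits are the 3 most and 1 least alike over types, the 3 largest rises and falls with the same direction in 5 retinas, the inhibitory list (15 on the panel) and the cell type markers. Some genes of the inhibitory list are counted but not reported here by name. Opn1sw and 38_FmidiON were singled out after their values were seen, and Opn1mw and Tbx20 were looked at along the axes beside Opn1sw. Medians of 285 to 326 puncta per cell leave most genes at few puncta, so no cell was compared on its own.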

Additional observations from a re-analysis of the deposited data

Results flagged for a closer look

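Among the 45 sets of 5 retina values examined, 2 had a retina far from the other 4, by a gap over 0.71 of the whole range. Chance gives this in about 1 of 20 sets. The log2 change of Gabrr1 along Y in retina 1 was -0.21, and the gap took 0.751 of the range. The log2 change of Glra1 between larger and smaller cells in retina 1 was -0.52, and the gap took 0.752 of the range. On its 2 slides retina 1 had Glra1 levels of 27.5 and 10.5. The causes were not tested.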

How the results depend on the processing

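Gabrr1 rests on 3886 puncta, sections of 1 retina are not independent, and 1181 cells (0.899%) had no marker of other cell types. Values below are counts of genes called, or log2 changes. On the radial axis 44 genes were called with DESeq2, 52 with the section as the block, 39 with a split at the median radius, 12 for the outer against the inner tertile, 7 within sections, 2 in cells without other markers, and 0 with the same type mix or within types and sections. Along X the counts were 49, 58, 3 within sections, 1 with the same mix, and 0 in cells without other markers or within types and sections. Along Y they were 6 with DESeq2, 110 with the section as the block, and 1 each in cells without other markers and without the middle 0.2. Without the retina as a block, 1 gene each was called on the radial and X axes, 11 by volume, 45 with Gabra4, 123 with Gabrg3 and 57 with Glra1. The volume count was 0 in cells without other markers. With the same mix 73 genes were called with Gabra4, 122 with Gabrr1 and 131 with Glra1, and 79 with Gabra4 within types and sections. Pairs within types numbered 127, 20 and 25 with DESeq2 on the radial, X and Y axes, 62 along X and 191 along Y with 100 cells, 1 along Y with 20 cells, 27 along Y by library size, and 16 along X and 7 along Y with the slide as the block.

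Leaving out each retina gave 2 to 53 genes on the radial axis (2 without retina 4, 53 without retina 1), 2 to 43 along X, 0 to 2 along Y, 144 to 190 by volume, 240 to 244 with Gabra2, 126 to 144 with Gabra4, 225 to 236 with Gabrg3, 162 to 195 with Gabrr1 and 172 to 191 with Glra1. Pairs within types numbered 75 to 445 (radial), 7 to 129 (X) and 0 to 262 (Y). The Glra1 radial call was lost without retina 2, 4 or 5, and along Y no pair was left without retina 1 or 2.

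Directions of single subunits, none called where they turned except the 1 named, depended on the setting as follows. On the radial axis Gabra2 was at 0.00113 by library size, 0.0245 with the same mix, 0.00631 within sections, 0.0266 within types and sections, and 0.0448 and 0.00871 with slide and section blocks, and Gabra4 at -0.0170 with the section block and -0.0588 in cells without other markers. Along X Gabra2 was at 0.141 in cells without other markers, Gabra4 at 0.0198 within sections and 0.0305 within types and sections, Gabrr1 at 0.178 and 0.240 in the same and 0.114 and 0.236 with slide and section blocks, and Glra1 at -0.0347 with the same mix. Along Y Gabra4 was at 0.00785 within sections, 0.0107 within types and sections, and 0.0493 and 0.0843 with slide and section blocks, Gabrr1 at -0.134, -0.0800 and, with the slide block, -0.139, and Glra1 at -0.00507 with the same mix. Without each retina in turn, Gabra2 on the radial axis ran from -0.0432 to 0.0379, Glra1 along X from -0.0549 to 0.0831, and along Y Gabra4 from -0.229 to 0.101 and Glra1 from -0.0539 to 0.170. By volume Gabra2 was at -0.000537 within types and sections and Gabrg3 at -0.451 in cells without other markers. Gabra4 was at -0.0924 with the same mix and -0.0559 within types and sections in cells with Gabra2, and at -0.0835, which limma called (adjusted p = 0.0207), and -0.0367 in cells with Gabrg3. Gabrg3 was at 0.0167 by library size in cells with Gabrr1, and Gabra4 along X in 02_W3D1.2 at 0.00506 with the slide block. Co-detection turned for Gabra2 with Glra1 unthinned (0.149), Gabra4 with Gabrg3 at 2 puncta (-0.0164), within types (-0.0429) and within types and sections (-0.0163), Gabra4 with Gabrr1 at 2 puncta (-0.0408), and Gabrg3 with Gabrr1 unthinned (0.0538). The cause was not tested in these. The top type over the median type was 3.35 for Gabra2, and 4.33 per cell, 5.06 in cells without other markers and 3.596 without the 12 bipolar markers. It was 2.79 for Gabra4 (2.13 per cell, 2.15 per volume), 13.0 for Gabrg3 (17.4 in cells without other markers) and 3.07 for Gabrr1 (1.45 without the 12 bipolar markers). Cells without other markers gave no such value for Gabra4 or Gabrr1. Of the alternatives for subunits and named genes, 788 kept direction and call, 109 lost a call, 15 gained one and 38 turned.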
